A study of Arabidopsis thaliana with 6 samples.

Results

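Class III peroxidases are the secreted, haem-containing peroxidases of plants. Their transcripts were followed here in the shoots of Arabidopsis thaliana seedlings grown in darkness, either flown in space or kept on the ground. The genes were taken from a list of 44 loci of the family. A gene was measured where the platform annotation assigned a probe set to it alone, and 30 of the 44 genes met that condition, among 13333 genes so represented on the array. Of the other 14 genes, 4 lie on probe sets shared by several genes and 10 had no probe set named for them in the annotation used here. No measured gene of the list had more than 1 probe set. The family assignment was taken from the list and was not checked against protein sequences.

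Both groups were of the Landsberg (LER-0) ecotype, an inbred accession, and both were grown in darkness in canister units with Petri dishes built for spaceflight. The labels give no transgene, and no mutation beyond what that ecotype carries. The spaceflight group (3 arrays) grew in weightlessness aboard the space shuttle, and the ground control group (3 arrays) grew on Earth. The labels give neither seedling age nor the number of seedlings behind an array. Both groups carry the replicate numbers 2, 3 and 4, and the titles also hold a letter that differs between the groups, so whatever that letter stands for cannot be told apart from flight. Whether arrays of the same group stem from different dishes is not in the labels, and the p-values then cover only the spread between arrays, which may be technical.

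Class III peroxidases use hydrogen peroxide to oxidise phenolic groups in the cell wall. They polymerise monolignols into lignin, couple phenolic residues of wall polysaccharides and cross-link extensins, which stiffens the wall. In another reaction cycle they generate reactive oxygen species that can cut wall polymers, and so they are known both for restricting and for permitting cell expansion. Arabidopsis has 73 such genes in the full list used here. Many of them are known as root genes, some of them as root hair genes, and others act in germinating seeds and in lignifying stems.

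Values are log2 expression values from Affymetrix ATH1-type arrays, with array medians of 2.15 to 2.24 and 75th percentiles of 4.11 to 4.24. The deposited values come with no detection calls. A gene was therefore called high in a group where it lay above the array's 75th percentile on all 3 arrays, and low where it lay below the array's median on all 3. Probe sets bind with different strength, so these classes place a gene within its array and do not rank transcript amounts between genes. Precision is limited by having 3 arrays a group. In bulk tissue, fewer cells of a type and less RNA per cell cannot be told apart. Probes of this array follow the Columbia reference accession, and their match to Landsberg transcripts was not tested.

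Seed transcripts and spike-in levels differed among arrays of the same group. PAP85, a vicilin-like seed storage protein gene, read 1.90, 1.30 and 7.38 in flight replicates 2, 3 and 4, against 1.54, 10.91 and 10.57 in ground replicates 2, 3 and 4. The mean of the 3 measured seed storage genes ran from 1.81 to 4.96 in flight and from 1.78 to 8.53 on the ground. The hybridization spike-ins, bacterial and phage transcripts added in fixed amounts, averaged 10.13 to 10.19 in flight, against 9.61 in ground replicate 4 and 10.19 to 10.20 in the other ground arrays. Each gene was therefore also fitted with the seed storage mean as a covariate, and those values stand beside the genes that passed and the genes with large or uneven changes. A fit without the 3 arrays with higher seed storage values keeps 2 flight arrays and 1 ground array, replicate 2. Its ground spread is unknown, so it is used for the size of a change and not for a call.

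In these dark-grown shoots a part of the listed genes was high on the array. The classes rest on percentiles of all probe sets, so a part of all probe sets meets each rule. The share of all probe sets in each class was not counted, so the counts do not set the family apart. Of the 30 measured genes, 6 were high in flight shoots and 5 were high in ground shoots. These 5 were AT2G37130, PRXR1, AT4G30170, AT4G11290 and PRX72, and the sixth in flight was AT1G71695. A further 13 genes were low in both groups, with single values from 0.85 to 2.14. Lying below the median on every array leaves little room for a change, and their log2 changes ran from -0.21 to 0.32. None was called different (0 of 13 in limma, and 0 at an unadjusted p under 0.05), a count that the definition of the class makes likely. The remaining 11 genes lay between these classes in at least 1 group.

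**Figure D1:**
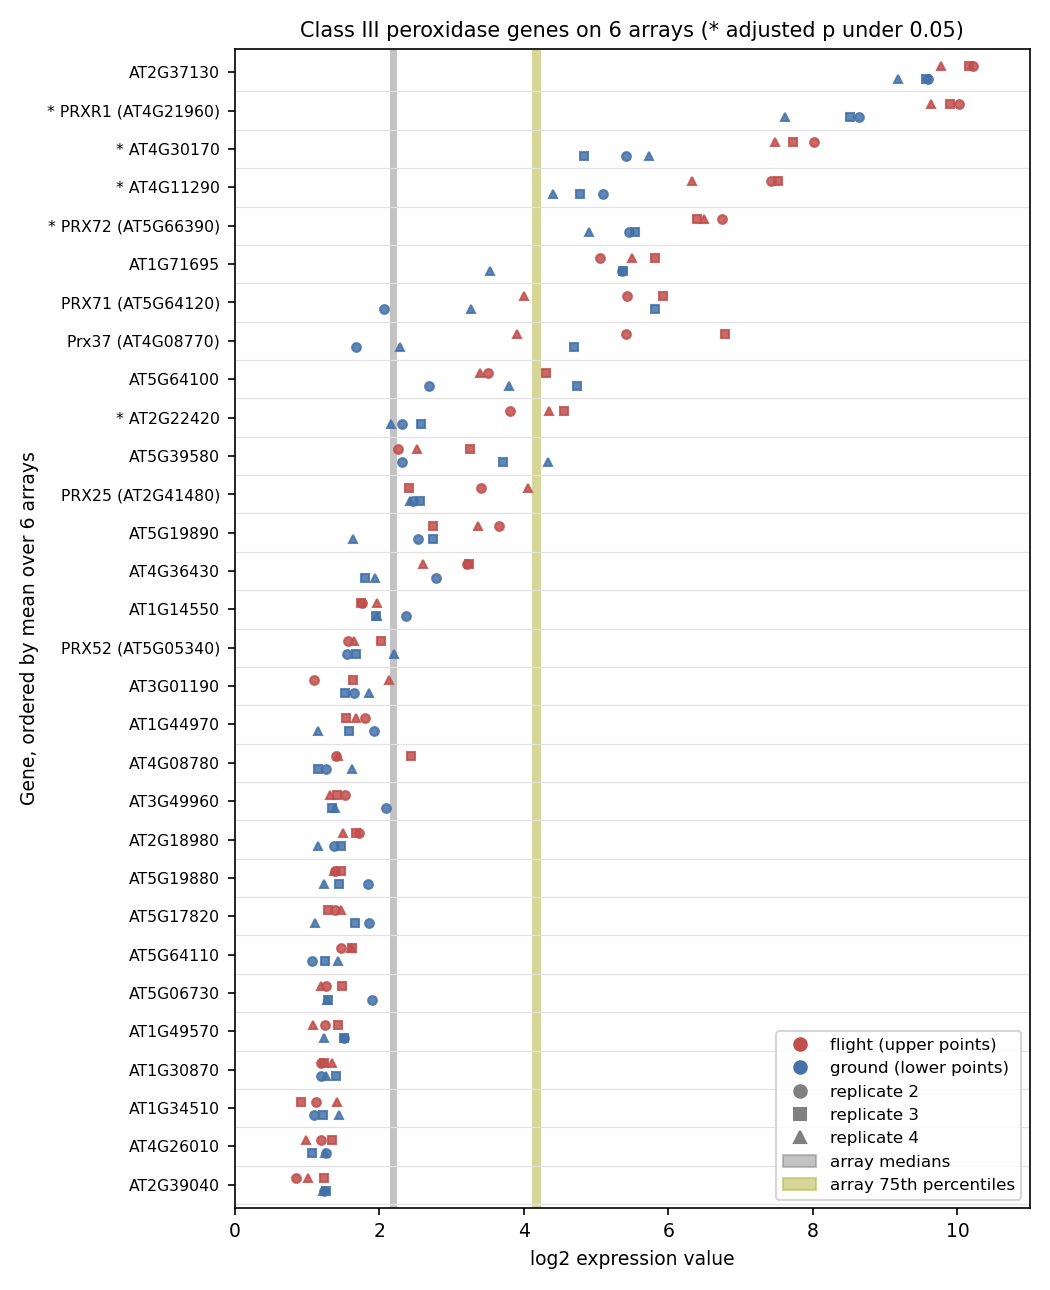
Log2 expression values of the 30 measured class III peroxidase genes (rows, ordered by mean) on each array, with flight arrays in red above ground arrays in blue and a symbol for each replicate number. The grey and yellow bands mark the array medians (2.15 to 2.24) and 75th percentiles (4.11 to 4.24), and the 13 genes low in both groups lie left of the grey band.

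Among the genes in the low class, AT4G26010, which is known to act in root hair growth, read 1.19, 1.35 and 0.99 in flight replicates 2, 3 and 4, against 1.26, 1.07 and 1.25 on the ground. AT5G17820, known in the root tip as a target of the transcription factor UPBEAT1, read 1.39, 1.29 and 1.47 in flight, against 1.86, 1.66 and 1.11 on the ground. AT1G44970, known for extensin cross-linking in the tapetum of anthers, read 1.80, 1.54 and 1.68 in flight, against 1.93, 1.58 and 1.15 on the ground. In all of these genes the flight and ground values overlapped. The 3 genes were picked after their values were seen, for their known roles.

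Flight shoots had more transcript of 5 peroxidase genes than ground shoots, and of none less. The 5 genes were AT4G30170, AT4G11290, AT2G22420, PRXR1 and PRX72, with log2 changes from 1.25 to 2.41, or 2.38-fold to 5.3-fold. Each passed an adjusted p under 0.05 in limma, a test fitted over all 22746 probe sets. They make up 16.7% of the 30 measured genes, where 4.13% of all probe sets tested were higher and 1.82% were lower in flight. The count for lower genes was 0 also at an unadjusted p under 0.05. Of the 7 measured genes whose mean over all arrays lay above the 75th percentile of such means, 4 were higher in flight (57.1%) and 0 lower, where 7.54% of all probe sets above that percentile were higher and 4.94% lower. The median log2 change was 0.21 over the 30 genes and -0.02 over all probe sets. Of the 30 changes, 16 were above 0 when rounded to 2 decimals. The list was chosen with earlier results of these data known, so its shares are a description and no test of the family. Of the 25 other measured genes of the family, 2 were called higher and 0 lower.

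AT4G30170 had the largest change among the genes that passed the test. Its values were 8.01, 7.73 and 7.47 in flight replicates 2, 3 and 4, against 5.42, 4.84 and 5.73 in ground replicates 2, 3 and 4. Every flight value lay well above every ground value. The means were 7.74 ± 0.27 in flight and 5.33 ± 0.45 on the ground (SD, n = 3 each), which differ by 2.41 on the log2 scale (SE 0.26, limma adjusted p 0.00566). Its adjusted p stayed under 0.05 in each of the 6 fits that left out 1 array and in the 9 other fits with all arrays, the seed storage covariate included (log2 change 2.29, adjusted p 0.0203). Without the 3 arrays with higher seed storage values the change was 2.45.

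AT4G11290, known in roots as a target that UPBEAT1 represses, had 7.42, 7.52 and 6.33 in flight and 5.10, 4.78 and 4.41 on the ground. Flight replicate 4 was the lowest flight array, and the groups did not overlap. The log2 change was 2.33 (SE 0.34), a 5.02-fold difference, with a limma adjusted p of 0.0141. It missed the threshold without flight replicate 2 (adjusted p 0.0574) or without flight replicate 3 (0.066). Under the seed storage covariate the change was 1.93 (adjusted p 0.0324), and without the 3 arrays with higher seed storage values it was 2.37.

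AT2G22420, a gene known for a part in lignified tissue, read 3.81, 4.56 and 4.35 in flight, against 2.32, 2.58 and 2.17 on the ground. The ground values lay close to the array medians, a level that cannot be told from background here, so the size of the change is known only against that reading. Flight values straddled the 75th percentile. The log2 change was 1.89 (SE 0.22) with a limma adjusted p of 0.0076. It passed in all 6 fits with 1 array left out and with the seed storage covariate (1.91, adjusted p 0.0236). Without the 3 arrays with higher seed storage values the change was 1.86.

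PRXR1 (AT4G21960) was among the brightest peroxidase probe sets, at the 99.2 percentile of all means. It had 10.02, 9.90 and 9.64 in flight and 8.64, 8.52 and 7.62 on the ground. Ground replicate 4 was the lowest array, and every ground value lay below every flight value. The log2 change was 1.60 (SE 0.28), a 3.02-fold difference, with a limma adjusted p of 0.0244.

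PRX72 (AT5G66390), known for lignin polymerisation in stems, had 6.74, 6.40 and 6.50 in flight and 5.45, 5.54 and 4.90 on the ground. The flight arrays lay close together, with an SD of 0.18, and above all ground arrays, whose SD was 0.35. The log2 change was 1.25 (SE 0.21), a 2.38-fold difference, with a limma adjusted p of 0.0203.

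Among the 5 genes that passed, the calls of PRXR1 and PRX72 depended most on the fit and the choice of arrays. With the seed storage mean as a covariate their log2 changes were 1.31 (limma adjusted p 0.0722) and 1.15 (0.0692), and neither passed. Leaving out any 1 of the flight arrays also took both above the threshold, with adjusted p of 0.0706 to 0.103 for PRXR1 and 0.0701 to 0.0762 for PRX72. Calls over all probe sets fell in these fits too. From 939 higher in flight, they went to 415 with the covariate and to 188 to 312 without 1 flight array. Without the 3 arrays with higher seed storage values the changes of PRXR1 and PRX72 were 1.32 and 1.12. The changes of all 5 genes stayed positive, from 1.05 to 2.71, in every fit run.

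**Figure D2:**
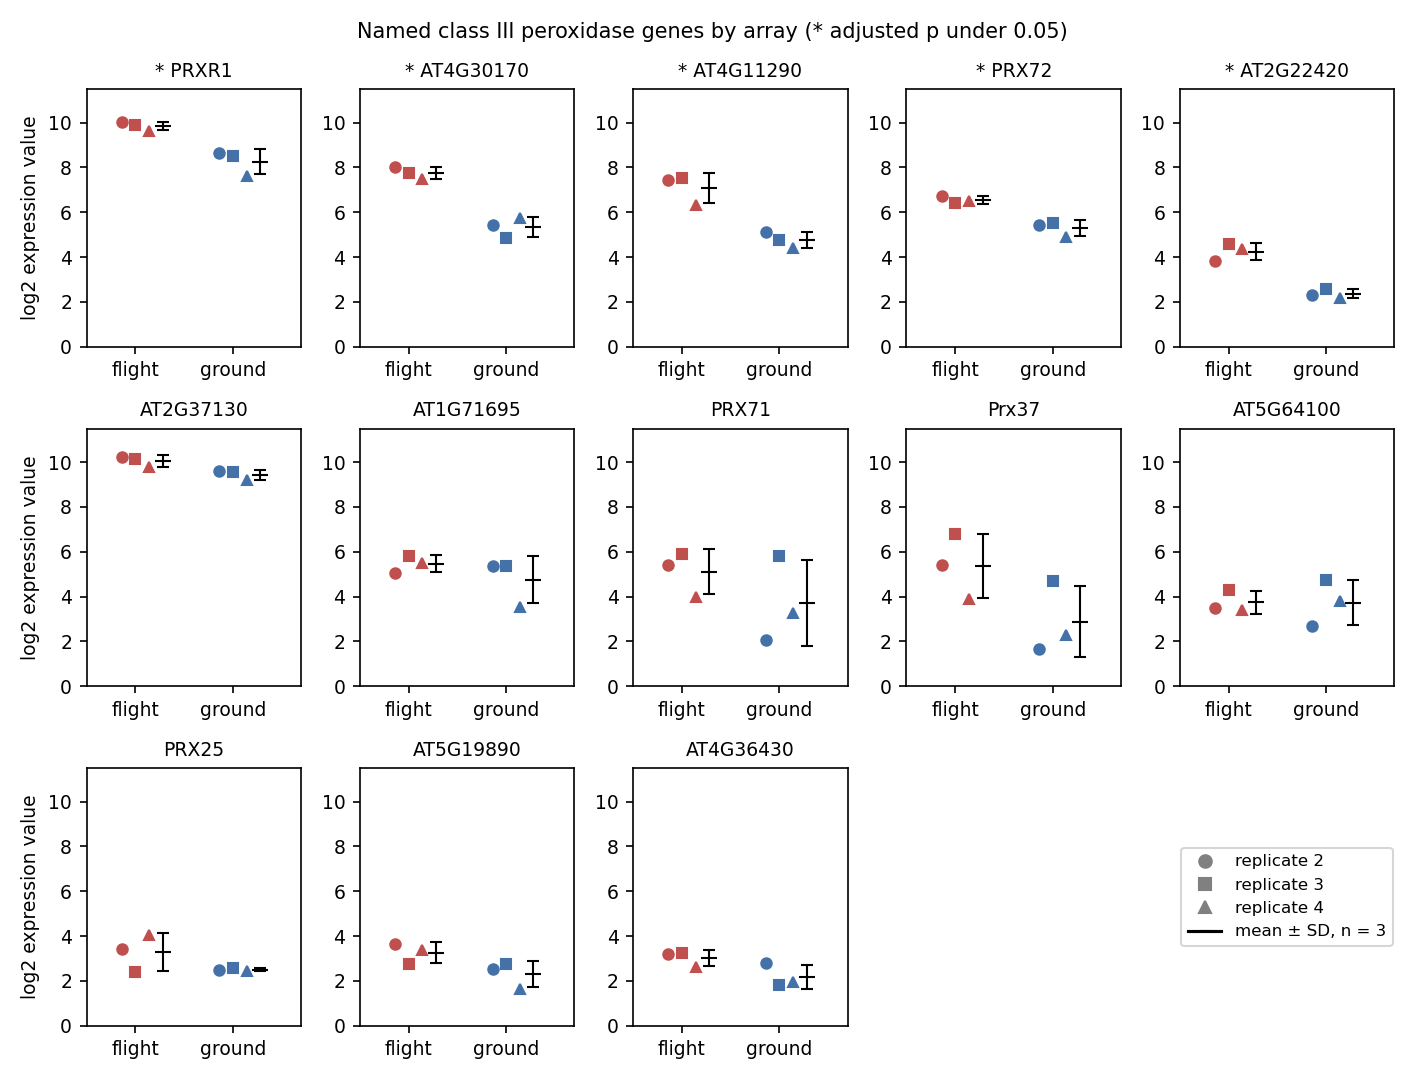
Log2 expression values of the 13 named genes, with flight arrays in red on the left and ground arrays in blue on the right of each panel, and the mean ± SD (n = 3) beside them. In the 5 genes marked with an asterisk no flight value reaches down to a ground value, while PRX71 and Prx37 spread over several log2 units within a group.

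Flight and ground values did not overlap in 8 of the 30 genes, with flight above in all 8 (26.7%) and below in 0. Over all probe sets tested, 14.2% had flight above and 11.8% had flight below without overlap. Beside the 5 genes described, these were AT2G37130, AT2G18980 and AT5G64110, named here because the count is small.

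AT2G37130 had the highest mean of the measured peroxidase probe sets and was not called. It read 10.22, 10.16 and 9.77 in flight, against 9.59, 9.56 and 9.18 on the ground. The log2 change was 0.61 (95% interval 0.17 to 1.06), and its limma adjusted p of 0.118 did not pass. With the seed storage covariate the change was 0.45 (adjusted p 0.312). AT2G18980 and AT5G64110, both low in both groups, had log2 changes of 0.29 (adjusted p 0.329) and 0.32 (0.281).

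Other genes had changes as large but spread over the arrays. Prx37 (AT4G08770), known for reduced growth when overproduced, read 5.42, 6.78 and 3.91 in flight replicates 2, 3 and 4, against 1.68, 4.69 and 2.29 on the ground. Ground replicate 3 lay above flight replicate 4, so the groups overlapped. The log2 change of 2.49 was the largest of the 30, and its 95% interval ran from 0.30 to 4.68 with a limma adjusted p of 0.184. Of the 9 other fits with all arrays, Prx37 passed in 1, with the replicate number as a block (limma adjusted p 0.0359). It passed in 0 of the 6 fits that left out 1 array.

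PRX71 (AT5G64120), known to restrict cell growth and to be induced by wall damage, showed a like order of arrays. Its values were 5.43, 5.92 and 4.00 in flight, against 2.06, 5.82 and 3.27 on the ground. Ground replicate 2 was the lowest and ground replicate 3 the highest ground array in both genes. The log2 change of PRX71 was 1.40 (95% interval -0.82 to 3.61, limma adjusted p 0.473). With the seed storage covariate the changes were 2.80 for Prx37 (adjusted p 0.259) and 2.08 for PRX71 (0.359), and neither passed. Against ground replicate 2 alone, where both genes read below the array median, the changes of flight replicates 2 and 3 were 4.43 and 3.61.

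AT1G71695 read 5.06, 5.82 and 5.50 in flight, against 5.36, 5.37 and 3.54 on the ground. Ground replicate 4 alone lay below the flight range, and that array also had the lowest spike-in mean. The log2 change was 0.70 (limma adjusted p 0.495), 0.55 after centring on the spike-ins (0.519), 0.33 with the seed storage covariate (0.828) and 0.10 without ground replicate 4 (0.861).

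PRX25 (AT2G41480), whose loss is known to lower lignin content, read 3.41, 2.41 and 4.06 in flight, against 2.47, 2.57 and 2.43 on the ground. Flight replicate 3 lay below all ground values and the other flight arrays above them. The log2 change of 0.80 did not pass (limma adjusted p 0.291), nor did that of 1.03 with the seed storage covariate (0.281). AT5G19890 had 3.66, 2.74 and 3.37 in flight and 2.54, 2.75 and 1.64 on the ground. Its log2 change was 0.95 (adjusted p 0.177), or 0.86 with the seed storage covariate (0.348). AT4G36430 had 3.22, 3.24 and 2.60 in flight and 2.79, 1.80 and 1.94 on the ground, a log2 change of 0.84 (adjusted p 0.171), or 0.37 with the seed storage covariate (0.327). In both genes the groups overlapped by a single pair of arrays.

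AT5G64100 and AT5G39580 are known, with PRX71, from germinating seeds. AT5G64100 had 3.51, 4.31 and 3.39 in flight and 2.69, 4.73 and 3.79 on the ground, with a log2 change of 0.00 (95% interval -1.18 to 1.19, limma adjusted p 0.998) and of 0.52 with the seed storage covariate (0.673). AT5G39580, named after its values were seen, had the lowest log2 change of the 30, -0.77 (adjusted p 0.464). It read 2.26, 3.25 and 2.53 in flight, against 2.32, 3.71 and 4.33 on the ground. Its higher ground values were those of replicates 3 and 4, the arrays with the highest PAP85 values. In flight, replicate 4 had the highest PAP85 value (7.38), but AT5G39580 read 2.53 there, below flight replicate 3 at 3.25. The covariate fit gave AT5G39580 a log2 change of -0.15 (limma adjusted p 0.907). A link to seed transcripts was not tested.

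**Figure D3:**
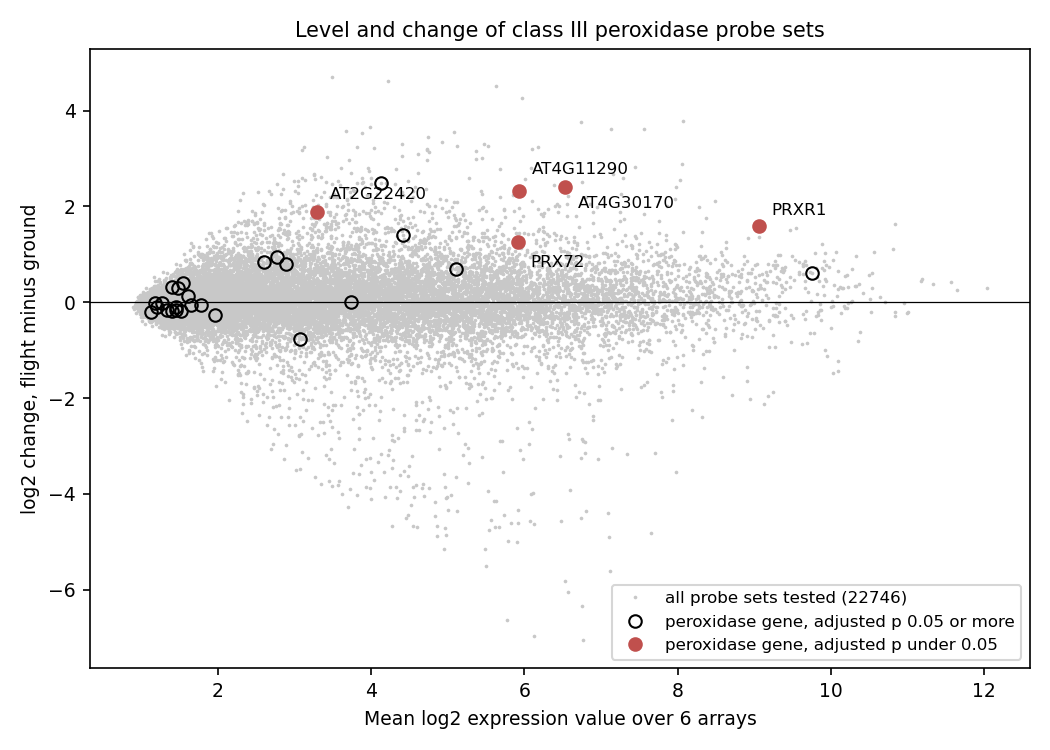
Log2 change (flight minus ground) against the mean log2 expression value over 6 arrays, for all 22746 probe sets tested in grey and the 30 peroxidase genes as circles. The 5 filled genes lie at means above 3, and the cluster of open circles near a mean of 1.5 is made of genes low in at least 1 group.

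Several measured genes of the family are direct neighbours on a chromosome in RefSeq's TAIR10.1 gene order. The measured listed neighbours differed in level class in at least 1 group. Prx37 lies next to AT4G08780, which had 1.40, 2.44 and 1.43 in flight and 1.26, 1.16 and 1.63 on the ground. AT4G08780 was low in the ground group, where Prx37 read 1.68, 4.69 and 2.29. In flight both genes lay between the high and low classes. AT5G64100, AT5G64110 and PRX71 form a row of 3. The middle gene, at 1.47, 1.62 and 1.61 in flight and 1.07, 1.25 and 1.43 on the ground, was low in both groups, while both of its neighbours read above 2 on every array. AT5G19890 lies next to AT5G19880, which read 1.39, 1.47 and 1.37 in flight and 1.84, 1.44 and 1.24 on the ground.

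The rest of the family was compared in the same fit. Of 29 further class III peroxidase genes, 25 were measured, so that 55 of the 73 genes of the family were covered. Of the 25, 1 (AT4G33420) was high and 16 were low in both groups, again with no count of these classes over all probe sets. In flight 2 of the 25 were called higher and 0 were called lower, where 4.13% of all probe sets were called higher and 1.82% lower. Without overlap, flight lay above ground in 5 of the 25 and below in 3. Over all probe sets these shares were 14.2% and 11.8%. The median log2 change of the 25 was 0.00, against 0.21 in the 30 listed genes, and this difference was not tested. At an unadjusted p under 0.05, 2 of the 25 were lower in flight, AT1G77100 (log2 change -0.75, limma adjusted p 0.178) and AT5G24070 (-0.40, 0.228).

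The 2 higher genes both read below the array median on all 3 ground arrays, so the sizes of their changes are known only against a reading that cannot be told from background. AT3G21770 had 3.60, 3.17 and 3.47 in flight and 1.94, 1.57 and 1.16 on the ground, with a log2 change of 1.86 (SE 0.23, limma adjusted p 0.00819). AT5G58390 had 2.88, 3.53 and 3.48 in flight and 1.74, 2.02 and 1.49 on the ground, with a log2 change of 1.55 (SE 0.23, adjusted p 0.0138). AT5G58390 had an adjusted p of 0.0677 without flight replicate 3 and of 0.0614 without flight replicate 4, and with the seed storage covariate both genes passed (0.0241 for AT3G21770 and 0.0399 for AT5G58390). AT5G58400, the neighbour of AT5G58390, had a log2 change of -0.06 (adjusted p 0.876). AT4G33420, the high gene, read 6.05, 6.51 and 5.98 in flight and 6.88, 6.35 and 5.87 on the ground, a log2 change of -0.19 (95% interval -0.84 to 0.47).

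**Figure D4:**
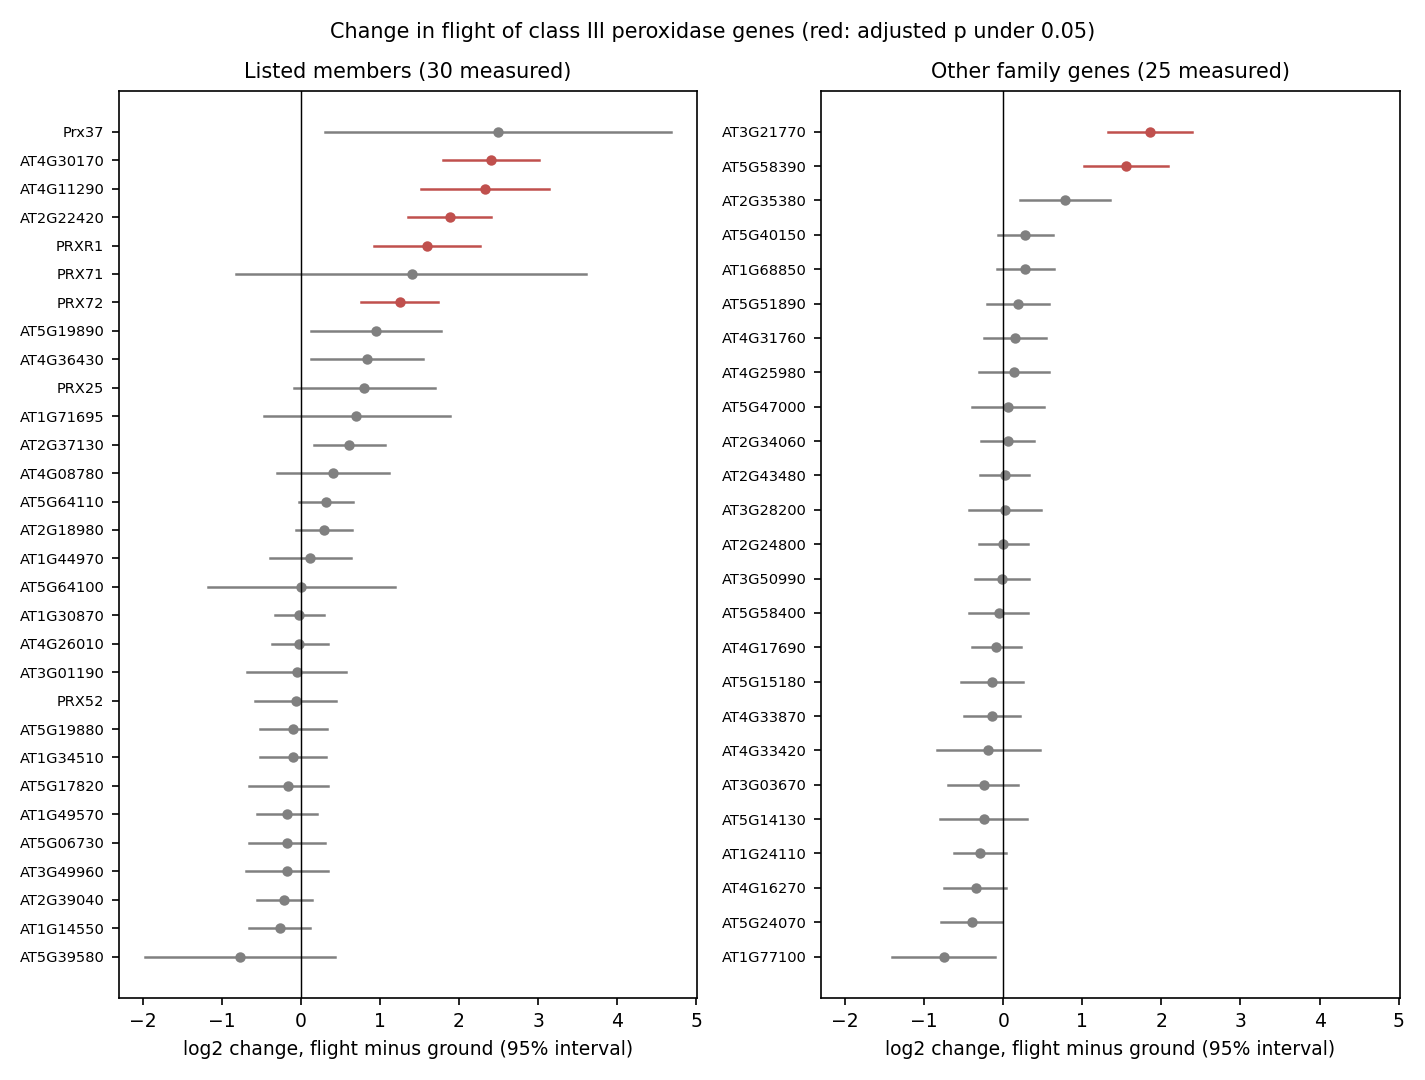
Log2 change (flight minus ground) with its 95% interval for the 30 listed genes on the left and the 25 other measured genes of the family on the right, with genes at an adjusted p under 0.05 in red. Red intervals all lie above 0, and the widest intervals belong to Prx37 and PRX71.

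Enzymes that supply or share the substrates of peroxidases were sparsely covered by the annotation used here. Of 18 genes of monolignol synthesis 2 were measured, and 1 was higher in flight. This was HCT, an acyltransferase on the path to lignin, which read 6.25, 5.91 and 6.06 in flight and 5.36, 5.37 and 5.26 on the ground, with a log2 change of 0.74 (SE 0.14, limma adjusted p 0.0329). HCT had an adjusted p of 0.0964 with the seed storage covariate, 0.291 with spike-in centring, 0.0694 with the replicate block and 0.0686 with a trended and robust prior. Of the 6 fits that drop 1 array, it passed in 1, the fit without ground replicate 2. Of 10 NADPH oxidases, which make the superoxide that turns into hydrogen peroxide at the wall, 3 were measured and 0 passed (0 also at an unadjusted p under 0.05). All 3 were low in both groups. The 1 measured laccase of 17, LAC16, was low as well. No gene of the list of catalases, ascorbate peroxidases and superoxide dismutases was measured (0 of 10). The annotation used here named no probe set for them, which does not say that the array lacks one.

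The tissue was checked against marker genes. All 3 measured root hair markers, EXPA7, EXPA18 and XTH26 (3 of 14 listed), were low in both groups, with values from 0.96 to 1.96. The 1 measured marker of the root list, PYK10, an ER-body glucosidase gene that seedlings express also in hypocotyls and cotyledons, was high at 10.87, 10.71 and 10.77 in flight and 10.56, 10.61 and 9.45 on the ground. The 1 measured gene of the Casparian strip list, GSO1, had a log2 change of -0.49 (limma adjusted p 0.157). The leaf polarity gene YAB3 read 4.89, 5.12 and 4.89 in flight and 4.23, 4.79 and 3.98 on the ground, and PORB, a protochlorophyllide reductase gene, 3.65, 4.36 and 4.49 in flight and 3.31, 4.71 and 2.40 on the ground. Neither YAB3 (adjusted p 0.164) nor PORB (0.551) passed. The part of tissue makeup in the peroxidase values was not tested.

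The medians of the 7 brightest peroxidase genes and of all 30 did not order the arrays alike. Among the 7 genes with means above the 75th percentile, flight replicate 4 was the lowest flight array in 5 and ground replicate 4 the lowest ground array in 5. Over all probe sets above that percentile, flight replicate 4 was lowest in 33.6% and ground replicate 4 in 33.0%. The median of the 7 genes was 7.42, 7.52 and 6.50 in flight replicates 2, 3 and 4, against 5.42, 5.54 and 4.90 in ground replicates 2, 3 and 4. The median of all 30 genes, the 7 included, was instead lowest in flight replicate 2, at 1.78, 2.21 and 2.06 in flight. On the ground it was lowest in replicate 3, at 1.74 there against 2.0 and 1.90 in ground replicates 2 and 4. These medians of the 30 lay near or below the array medians, a level that cannot be told from background here.

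**Figure D5:**
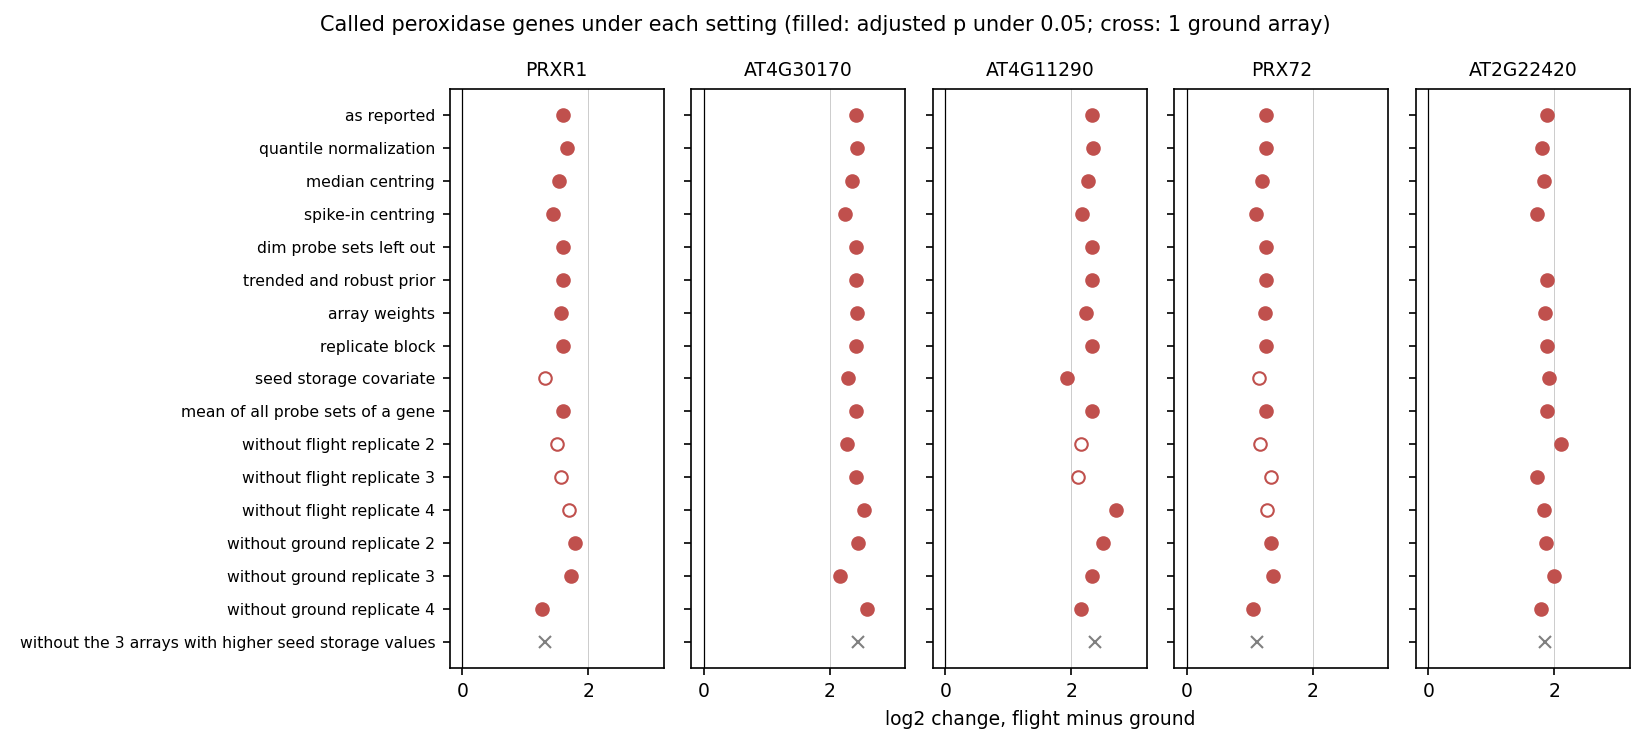
Log2 change (flight minus ground) of the 5 genes that passed the test, as reported and under each other setting, with filled points where the adjusted p was under 0.05. Crosses mark the fit with a single ground array, which gives a size and no call. AT4G30170 passed under every other setting shown, AT2G22420 was not tested once dim probe sets were left out, and PRXR1 and PRX72 have the most open points.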

How the data were processed

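Shoots of flight and ground seedlings were profiled on 3 arrays each. Per the labels' protocols, the RNA was amplified before biotin labelling. The values are log2 expression values as deposited by the authors (0.63 to 12.98); the log base is read from their range. Per the submitters' processing notes the tools include PLIER, MAS5 and RMA; the one behind these values, its background correction and any filter: not given in the sources used here.

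Control probe sets (64) were left out, leaving 22746. Genes were named through the platform annotation and RefSeq (TAIR10.1), and a locus was kept as name where RefSeq holds no symbol or numbered peroxidase synonym. Flight was compared with ground in limma 3.58.1 (R 4.3.3; lmFit, eBayes, two-sided, no covariates), with Benjamini-Hochberg adjustment over all probe sets. SE are limma's moderated errors. The procedure was tested on simulated data with independent noise for each probe set, which does not cover differences shared across an array. Figures used matplotlib 3.10.9.

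The members, lists and tests were chosen with earlier results of these data known. Values on every array are given for genes that passed, for the 10 highest means and for the 5 largest changes that did not pass; other genes named with values were picked later. Same-numbered arrays had residual correlations of 0.202, -0.0265 and 0.271, so the numbers were not taken as pairs. Alternatives were other normalizations, filters, variance priors, weights, covariates, thresholds, the replicate block and arrays left out.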

Additional observations from a re-analysis of the deposited data

How the results depend on the processing

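The count of peroxidase genes higher in flight was 5, and 4 to 6 under quantile normalization, median centring, spike-in centring, removal of dim probe sets, a trended and robust prior, array weights, averaging a gene's probe sets, an adjusted p under 0.10 and the replicate block. The block gave 6 genes, with Prx37 added (adjusted p 0.0359). It was 3 with the seed storage covariate and 2 at an adjusted p under 0.01. With 1 array left out it ran from 2 to 6: 2 without flight replicate 2, 2 without flight replicate 3, 3 without flight replicate 4, 6 without ground replicate 2 (AT4G36430 added, adjusted p 0.0351), and 5 without ground replicate 3 or 4. Without the 3 arrays with higher seed storage values, an alternative chosen after seeing the data, it was 4; that fit has 2 flight arrays and 1 ground array, assumed to vary like the flight arrays, so this count says nothing on stability. No measured gene of the list was called lower in flight in any of these fits (0 in each). Over all probe sets, 939 were higher in flight in the reported fit and 415 with the seed storage covariate. Leaving out flight replicate 2, 3 or 4 gave 309, 188 or 312 such probe sets. Leaving out ground replicate 2, 3 or 4 gave 1124, 621 or 526.

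The median log2 change of 0.207 ran from 0.115 to 0.316 with 1 array left out, was 0.053 with spike-in centring, where the median of all probe sets was -0.174, and was 1.495 over the 8 genes that remain once dim probe sets are left out. AT5G64100, at 0.00, was negative with quantile normalization (-0.08), median centring (-0.05), spike-in centring (-0.15), array weights (-0.21), and ran from -0.52 to 0.50 with 1 array left out, negative without flight replicate 3 (-0.28) and without ground replicate 2. It was 0.52 with the seed storage covariate and 1.22 without the 3 arrays named above. Values near the array medians cannot be told from background here, which limits the 13 low genes and the size of the changes of AT2G22420, AT3G21770 and AT5G58390.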
